A study of Mus musculus with 2 samples.

Results

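Integrins and the dystrophin-glycoprotein complex are the receptors that tie a muscle cell to the matrix around it. An integrin is a pair of an α and a β chain that crosses the membrane, binds laminin, fibronectin, collagen or a ligand on another cell outside, and is joined to actin inside by talin and other linkers. In the dystrophin complex, dystroglycan binds laminin outside and dystrophin or its relative utrophin inside, while sarcoglycans, sarcospan, syntrophins and dystrobrevin hold the assembly together or carry signalling proteins. Loss of dystrophin complex proteins or of integrin α7 causes muscle disease in mice and people, and in myoblasts the integrins are also used for migration and fusion. The members were a list of 31 genes by symbol, 21 integrin chains and 10 genes of the dystrophin complex, taken from the deposited table where a probe set was annotated to that gene alone. This found 30 of the 31 genes among 18193 genes in all. Itga11, a collagen-binding α chain, was matched to no such probe set and is not analysed here.

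The cells were primary myoblasts from newborn Sv129 mice, grown on laminin and collagen. For 4 hours they were kept in DMEM with 2% horse serum, with 100 ng/ml of Wnt3a in the Wnt3a group and without it in the control group. Wnt3a is a secreted ligand that stabilises β-catenin. Each group had 1 array, so no difference has a replicate check, no test was possible, and the number of arrays limits the precision. Both groups thus grew on ligands of several integrins.

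Values are log2(intensity + 1) on the brightest probe set of a gene, and differences are Wnt3a minus control on that scale. A gene counted as measured if either array gave its probe set 6 or more on this scale, which is an intensity of 63. This fixed floor is a brightness and not a detection limit, and brightness was not compared between genes, since probe sets differ in how strongly they bind. Of 18193 genes 11397 were measured, and the central 95% of their differences ran from -0.33 to 0.33. Probe sets of 1 gene differed from each other with a pooled SD of 0.12, over 5084 genes. Axin2, a negative regulator and target of the pathway, was at 10.25 on the Wnt3a array and 6.64 on the control array, higher in the group labelled as treated. Of the 7 myoblast markers listed, 6 were measured and Msc was below the floor. Among them Myod1 was at 13.28 with Wnt3a and 13.41 in the control, Pax7 at 11.08 and 11.20, Myf5 at 12.45 and 11.96, Des at 11.23 and 10.91, Cdh15 at 11.61 and 11.59, and Chrna1 at 13.79 and 13.73. Markers of other cell types were mostly below the floor. Of 9 fibroblast markers with a probe set only Col3a1 was measured, at 13.19 with Wnt3a and 13.42 in the control, of 6 for smooth muscle and pericytes only Cspg4, of 8 for leukocytes Csf1r, Cd3e and Laptm5, and of 6 for endothelium Kdr and Tek. Tek, a receptor of endothelium, was at 5.34 with Wnt3a, below the floor, and at 6.16 in the control, and was the one measured marker past 1.5-fold, by its deposited values. Of 5 platelet markers Gp1bb and Gp9 were measured, of 4 Schwann cell markers Sox10 and Erbb3, and of 6 epithelial markers Epcam and Krt8.

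Of the 30 members, 21 were measured, 13 integrin chains and 8 genes of the dystrophin complex, and each of these 21 reached the floor on both arrays. A single member, Itgb8, differed by at least 1.5-fold, and it was higher with Wnt3a. Across all measured genes the shares past 1.5-fold were 0.886% on the high side and 0.342% on the low side. Itga4 was the next member in size, and all other measured members lay inside the central 95% of differences. The integrins were divided in direction, 7 higher and 6 lower, with a median of 0.063, while all 8 measured dystrophin complex genes were higher, by small amounts, with a median of 0.066. Of all measured genes 47.3% were higher, and their median difference was -0.0057. A direction here is set against the typical gene. Scaled on the spike-in controls, which were lower on the Wnt3a array, every difference would be 0.19 higher, 11 of the 13 integrins would be on the high side, and of the members only Itga3 and Itga7 would remain on the low side among those measured.

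**Figure D1:**
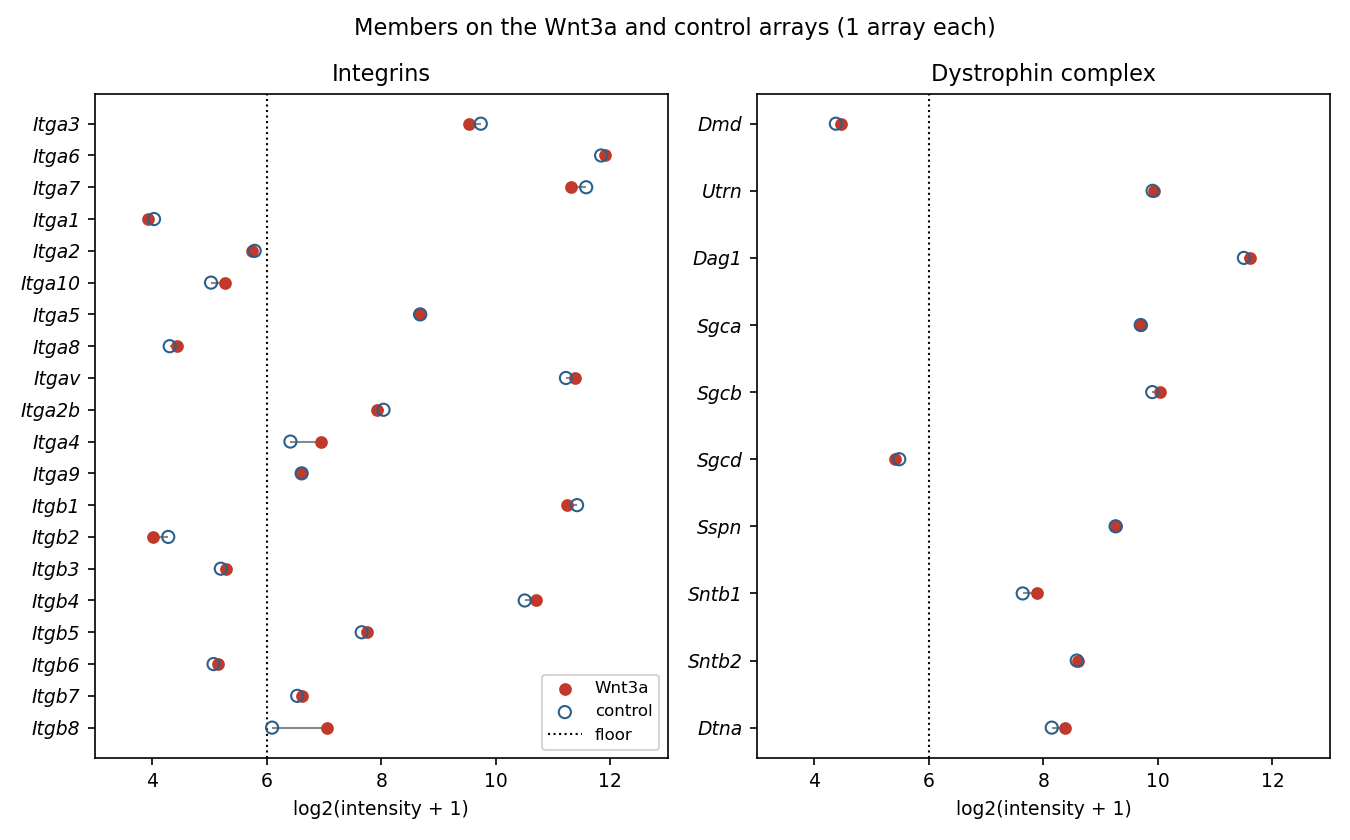
Level of each of the 30 member genes on the Wnt3a array (filled red) and on the control array (open blue), as log2(intensity + 1) of its brightest probe set, with the floor of 6 as a dotted line. The points of most genes nearly coincide. Itgb8 (7.05 and 6.09) and Itga4 (6.95 and 6.41) are the widest pairs. Of the 30 genes 9 lie below the floor, among them Dmd and Sgcd.

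Itgb8 encodes the β8 chain, which pairs with αv and is known for binding latent TGF-β and helping to activate it. It was at 7.05 on the Wnt3a array and at 6.09 on the control array, a log2 difference of 0.96 or 1.95-fold. The control value lay just above the floor. This was the 32nd highest difference of the 11397 measured genes. Only 1 probe set was annotated to the gene, so there is no second measurement of it even within an array. In such bulk RNA, a change in the share of cells that express a gene and in its RNA per cell cannot be told apart. Differences are wider among dim genes. Of the 2088 measured genes with a mean under 7, 1.29% were at least 1.5-fold higher, and their central 95% ran from -0.36 to 0.42.

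Itgav, which encodes the partner chain αv, was at 11.38 with Wnt3a and 11.22 in the control, a difference of 0.15. Its second probe set at the floor gave 0.10, and the 3 below the floor gave 0.07, 0.10 and -0.21. Among the other β chains that pair with αv, Itgb5 and Itgb1 were measured, and neither came near the difference of Itgb8. The values of Itgb1 are given below. Itgb5, the β5 chain of a vitronectin receptor, was at 7.75 with Wnt3a and 7.66 in the control on its brightest probe set (0.09), but its 4 probe sets ran from -0.21 to 0.10 and 2 of them were lower. Itgb3, the β3 chain, and Itgb6, the β6 chain of epithelia, were below the floor on both arrays. They were at 5.29 and 5.15 with Wnt3a and 5.20 and 5.07 in the control, so no difference can be read for them.

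Itga4 encodes α4, which pairs with β1 or β7 and binds VCAM-1 and fibronectin. It was at 6.95 with Wnt3a and 6.41 in the control, a difference of 0.53 or 1.45-fold, short of the 1.5-fold threshold. It has 5 probe sets, and the other 4 lay below the floor on both arrays. The brighter pair of these, at 5.85 and 5.70 on the Wnt3a array, gave 0.85 and 0.42. The dimmest pair, at 4.12 and 3.49 with Wnt3a and at 4.21 and 3.46 in the control, gave -0.09 and 0.03. Below the floor no difference can be read, so the value of Itga4 rests on 1 probe set. Itga9, the relative of α4 that binds tenascin-C and osteopontin, did not share the difference. It was at 6.59 with Wnt3a and 6.61 in the control (-0.01), with -0.04 and 0.17 on probe sets below the floor.

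The promoters of both genes are shown because they belong to the members with the largest differences, and that of Itgb1 because it is the common partner chain. Each sequence runs 5′ to 3′ on the gene's strand from 250 bases before to 50 bases after the annotated start, from RefSeq on GRCm38.p6. Itgb8 lies at chr12:119238227-119238526 on the minus strand, Itga4 at chr2:79255176-79255475 on the plus strand and Itgb1 at chr8:128685404-128685703 on the plus strand. Capitals mark the E-box CANNTG, the core to which myogenic factors such as MyoD bind, and the TCF/LEF core CTTTGA or CTTTGT read on both strands, through which β-catenin acts on DNA.
Itgb8: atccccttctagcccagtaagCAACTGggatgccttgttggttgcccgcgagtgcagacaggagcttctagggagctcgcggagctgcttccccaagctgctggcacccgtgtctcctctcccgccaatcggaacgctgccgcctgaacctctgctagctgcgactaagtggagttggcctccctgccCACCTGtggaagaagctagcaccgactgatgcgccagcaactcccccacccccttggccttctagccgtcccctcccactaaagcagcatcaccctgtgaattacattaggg
Itga4: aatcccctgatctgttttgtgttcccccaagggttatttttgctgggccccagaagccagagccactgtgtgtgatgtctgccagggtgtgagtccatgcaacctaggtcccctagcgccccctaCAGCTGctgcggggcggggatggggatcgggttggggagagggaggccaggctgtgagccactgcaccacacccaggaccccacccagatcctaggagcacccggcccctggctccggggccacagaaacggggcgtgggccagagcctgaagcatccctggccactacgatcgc
Itgb1: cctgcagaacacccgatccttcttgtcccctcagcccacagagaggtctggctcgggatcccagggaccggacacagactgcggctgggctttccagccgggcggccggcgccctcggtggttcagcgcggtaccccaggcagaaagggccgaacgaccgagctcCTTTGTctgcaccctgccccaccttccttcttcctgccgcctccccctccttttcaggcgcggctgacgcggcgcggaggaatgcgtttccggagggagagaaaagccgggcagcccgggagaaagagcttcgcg

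The Itgb8 window held 2 E-boxes and the Itga4 window 1, and neither held the TCF/LEF core. The Itgb1 window held 1 TCF/LEF core and no E-box. In the promoter table, which covers 28 promoters of 23 of the members, 28.6% of member promoters held the TCF/LEF core against 31.2% of all 32851 promoters of the same length. For the E-box these shares were 75.0% and 72.3%. A match is a run of letters and not a shown binding site, and no match says only that the letters are not in this window.

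The laminin-binding α chains, Itga3, Itga6 and Itga7, differed little, and 2 of the 3 were lower with Wnt3a. Itga7 encodes α7, the main laminin receptor chain of skeletal muscle, which pairs with β1. It was at 11.32 with Wnt3a and 11.58 in the control, a difference of -0.26 on its only probe set, the lowest of all measured members. Itga3, which encodes α3, a receptor chain for laminins of basement membranes, was at 9.54 with Wnt3a and 9.74 in the control (-0.20). All 3 of its probe sets were lower, from -0.26 to -0.09. Itga6, the α6 chain that pairs with β1 or β4, was at 11.90 with Wnt3a and 11.84 in the control (0.06), with -0.03 on its other probe set. All 3 genes lay inside the central 95% of measured genes.

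Itgb1 encodes β1, the partner of most α chains in myoblasts. On its brightest probe set it was at 11.25 with Wnt3a and 11.42 in the control, a difference of -0.17. A second probe set, at 11.09 with Wnt3a and 11.08 in the control, gave 0.01, and the dimmest of its 3 at the floor gave -0.09. The probe sets of the gene therefore gave no single direction. Itgb4, the β4 chain that joins α6 to keratin filaments in hemidesmosomes, was at 10.69 with Wnt3a and 10.51 in the control, a difference of 0.19 on its only probe set. Of the 6 epithelial markers 2 were measured, both higher on the brightest probe set. Epcam was at 7.61 with Wnt3a and 7.47 in the control (0.14), with -0.16 on its other probe set. Krt8 was at 6.77 and 6.69 (0.08), and its 3 probe sets ran from 0 to 0.08. Cdh1, Krt5, Krt14 and Krt18 were below the floor. With these counted in, the 6 markers had a summed intensity of 439.9 with Wnt3a and 408.8 in the control. Their part in the Itgb4 value was not tested.

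Among the measured α chains that bind the RGD sequence of fibronectin and vitronectin, only Itgav, given above, was higher. Itga5, the classical fibronectin receptor chain, was at 8.65 with Wnt3a and 8.68 in the control (-0.02), while its other probe set at the floor gave 0.18. Itga8 was below the floor, at 4.42 with Wnt3a and 4.30 in the control. Itga2b, the fibrinogen receptor chain of platelets, was measured in these cultures, at 7.93 with Wnt3a and 8.04 in the control (-0.11, 1 probe set). Of the 5 platelet markers Pf4, Ppbp and Gp6 were below the floor, Gp1bb was at 6.62 with Wnt3a and 6.78 in the control, and Gp9 was at 6.42 and 6.51. The summed intensity of this list, genes below the floor included, was 264.9 with Wnt3a and 284.4 in the control. The part of the platelet markers in the Itga2b value was not tested.

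The collagen-binding α chains with a probe set were all below the floor. Itga1 was at 3.92 with Wnt3a and 4.03 in the control, Itga2 at 5.75 and 5.79, and Itga10 at 5.27 and 5.03. Of the β chains best known from leukocytes, Itgb2 was below the floor, at 4.01 with Wnt3a and 4.28 in the control, and Itgb7 was slightly above it, at 6.61 and 6.53 (0.08). Of the leukocyte α chains that pair with them, Itgal was at 6.23 with Wnt3a and 6.28 in the control, and Itgam, Itgax and Itgae were below the floor.

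**Figure D2:**
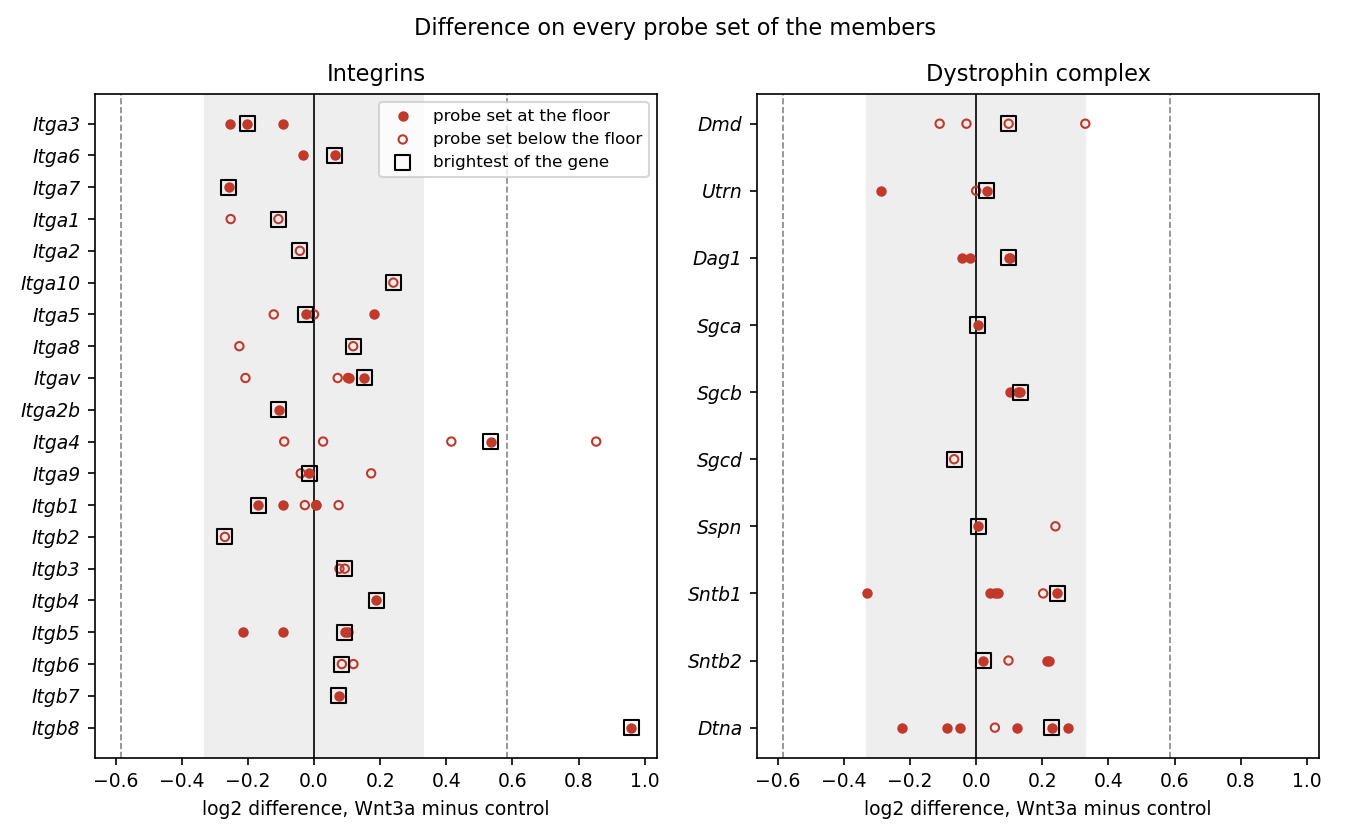
Log2 difference (Wnt3a minus control) on each of the 83 probe sets of the 30 genes. Filled points reached the floor and open points did not, a square marks the brightest probe set of the gene, grey shading spans the central 95% of measured genes and dashed lines mark 1.5-fold. Itgb8 (0.96) and the Itga4 probe set at the floor (0.53) lie to the right of the shading. Open points of Itga4, below the floor, lie there too, at 0.42 and 0.85, while Sntb1 and Dtna each have probe sets on both sides of 0.

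In the dystrophin complex no gene reached 1.5-fold in either direction, and the differences of the 8 measured genes ran from 0.005 to 0.25. Counted over probe sets at the floor, 18 of the 25 were higher and 7 lower, against 11 higher and 12 lower of the 23 of the integrins. Over all genes 46.3% of such probe sets were higher. Probe sets of 1 gene measure the same RNA and are not independent.

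Dmd, which encodes dystrophin, the actin-binding rod protein that appears as myoblasts differentiate, was below the floor on all 4 of its probe sets. The brightest was at 4.47 with Wnt3a and 4.37 in the control, so no difference can be read. Utrn, which encodes utrophin, its relative in immature muscle, was measured at 9.94 with Wnt3a and 9.91 in the control (0.03). A dimmer probe set, at 6.58 with Wnt3a and 6.87 in the control, gave -0.29, so the direction depended on the probe set. Dag1, which encodes both chains of dystroglycan, was at 11.60 with Wnt3a and 11.50 in the control (0.10). Another of its 4 probe sets also gave 0.10, and the remaining pair gave -0.02 and -0.04.

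Of the sarcoglycans and sarcospan, Sgcb had the largest difference, and all 3 of its probe sets were higher. It encodes β-sarcoglycan, a core subunit, and was at 10.03 with Wnt3a and 9.90 in the control (0.13), with 0.13 and 0.10 on its other probe sets. Sgca, the muscle-specific α-sarcoglycan, was at 9.70 on both arrays (0.01), and Sspn, which encodes the tetraspan-like protein sarcospan, was at 9.27 with Wnt3a and 9.26 in the control (0.01). Sgcd, δ-sarcoglycan, was below the floor, at 5.41 with Wnt3a and 5.48 in the control.

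The largest differences of the complex were those of a syntrophin and of dystrobrevin, the cytoplasmic adaptors. Sntb1, β1-syntrophin, was at 7.88 with Wnt3a and 7.64 in the control on its brightest probe set (0.25). Its other 4 probe sets at the floor gave 0.06, 0.06, 0.04 and -0.33. Dtna, α-dystrobrevin, was at 8.37 with Wnt3a and 8.15 in the control (0.23), and of its 6 probe sets at the floor 3 were higher and 3 lower, from -0.22 to 0.28. Sntb2, β2-syntrophin, was at 8.60 on the Wnt3a array and 8.58 on the control array (0.02), with 0.22 on each of its dimmer probe sets at the floor. As means over all their probe sets Sntb1 and Dtna each differed by 0.05, less than the spread between probe sets.

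**Figure D3:**
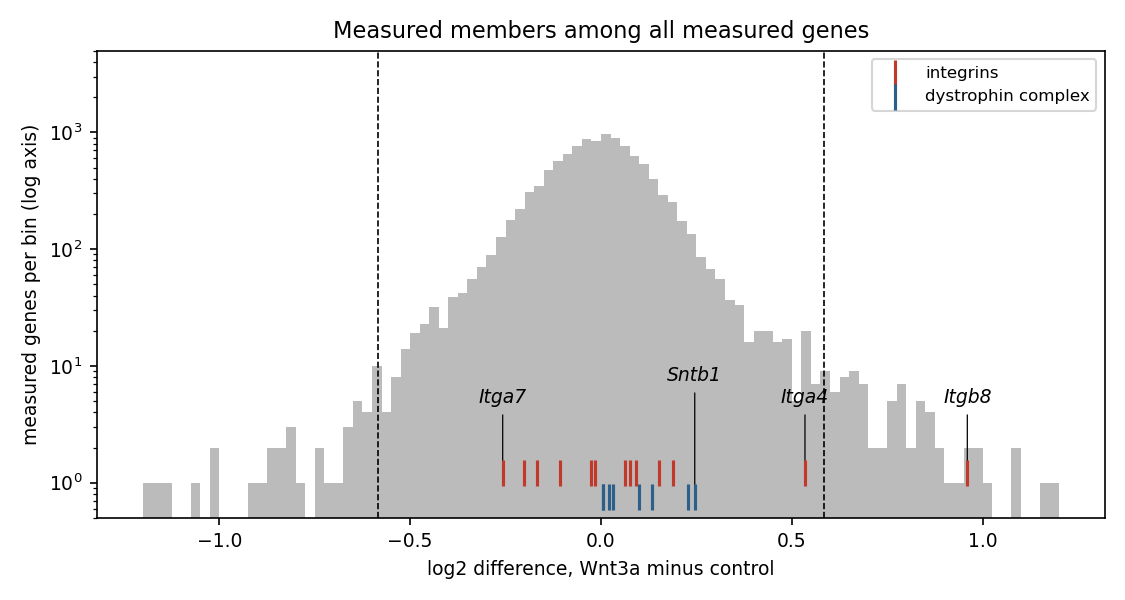
Histogram of the log2 differences (Wnt3a minus control) of measured genes within 1.2 of 0, on a log count axis, with ticks below for the 13 measured integrins (red) and the 8 measured dystrophin complex genes (blue). Dashed lines mark 1.5-fold. Itgb8 lies past the right line, Itga4 just inside it, and all blue ticks lie between 0.005 and 0.25.

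The proteins that link integrins to actin were described beside the receptors. Of 31 listed adaptors and linkers 24 were measured, 15 higher and 9 lower, none by 1.5-fold, with a median of 0.026. Beside this and the list counts that follow, 47.3% of all measured genes were higher and 1.23% passed 1.5-fold in either direction. Tln2, the talin of mature muscle attachments, was at 10.96 with Wnt3a and 10.68 in the control (0.28, and 0.49 and 0.19 on its other probe sets). Vcl, vinculin, which reinforces talin under load, was at 12.63 with Wnt3a and 12.36 in the control (0.27, and 0.35 on its other probe set). Tns3, the adaptor tensin 3, was lower, at 11.25 with Wnt3a and 11.75 in the control (-0.51), while a probe set below the floor gave 0.16. Bcar1, the scaffold p130Cas, was at 11.68 with Wnt3a and 11.87 in the control (-0.19). Membrane partners of the integrins gave 5 higher and 2 lower of 7 measured, with a median of 0.054. Cav1, caveolin 1, had the largest difference of these (-0.27), and the tetraspanins Cd82 (0.17) and Cd81 (0.09) and the integrin-associated Cd47 (0.13) were on the high side.

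Of the ligands, Vcam1, the counter-receptor of α4β1, had the largest difference in size. It was at 9.97 with Wnt3a and 10.60 in the control, 1.55-fold lower, and all 3 of its probe sets were lower, from -0.63 to -0.51. It alone passed 1.5-fold among the 72 measured genes of the linker, partner, ligand, leukocyte integrin, other dystrophin complex and glycosylation lists. Of all measured genes 1.23% passed it in either direction, so the count for the lists was near that share. A link between the Vcam1 and Itga4 values was not tested. Lamb2, the laminin β2 chain of the neuromuscular junction, was at 8.26 with Wnt3a and 7.84 in the control (0.42, 1 probe set), while Lamc1, the laminin γ1 chain (-0.23), and Col4a1, a basement membrane collagen (-0.26), were on the low side. The 16 measured ligands gave 10 higher and 6 lower genes and a median of 0.029.

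Other genes of the dystrophin complex and its neighbours showed no common direction, with 5 higher and 4 lower of 10 measured and a median of 0.024. Cav3, the muscle caveolin that binds dystroglycan, was at 7.69 with Wnt3a and 7.37 in the control (0.32, 1 probe set). Ank3, an ankyrin that helps to place the complex in the membrane, gave -0.11 on its brightest probe set. Nos1, the nitric oxide synthase bound through syntrophin, gave 0.10 there and Capn3, a muscle protease, 0.07. Over all probe sets, whether or not they reached the floor, Ank3 ran from -0.11 to 0.48, Nos1 from -0.12 to 0.10 and Capn3 from -0.16 to 0.07. The direction of these 3 genes therefore differed between probe sets. Capn3 was close to the floor even on its brightest probe set, at 6.16 with Wnt3a and 6.09 in the control. The genes listed for the glycosylation of dystroglycan were evenly divided, with 7 higher and 7 lower of 14 measured and a median of -0.0076. Dpm3 (0.23), B4gat1 (0.14), Gmppb (-0.14) and Pomt1 (0.13) were the largest of these, and none reached 1.5-fold. Dpm3 was close to the floor, at 6.45 with Wnt3a and 6.22 in the control on its only probe set.

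**Figure D4:**
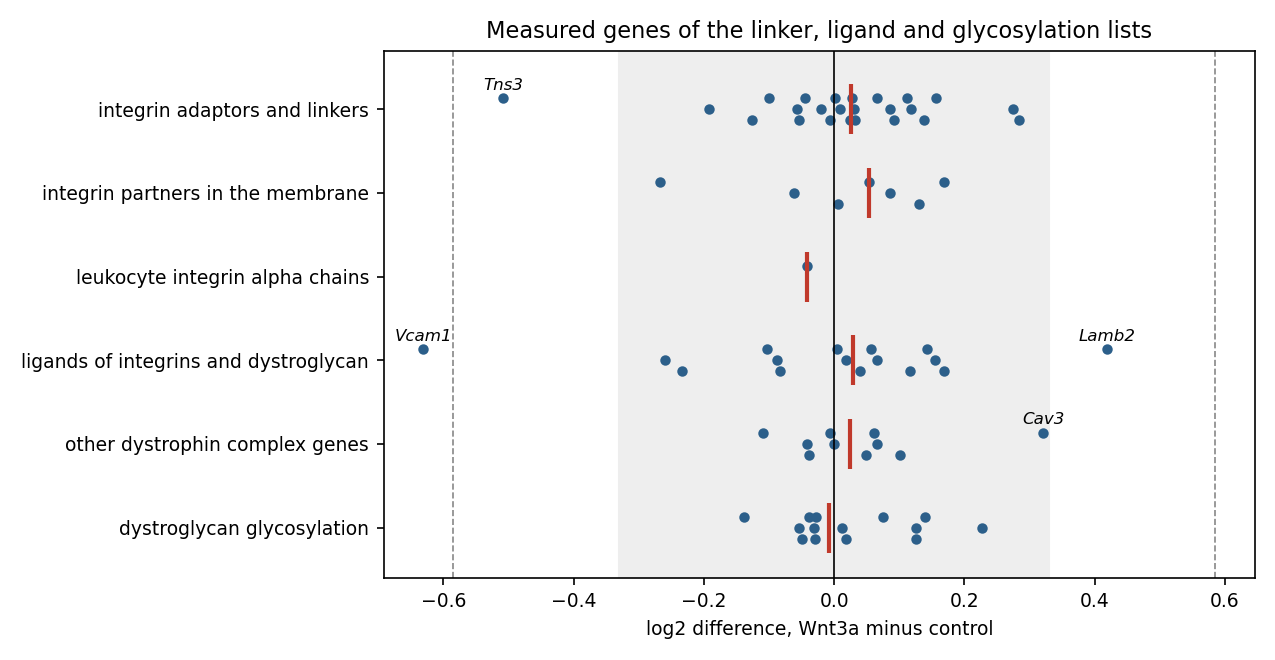
Log2 difference (Wnt3a minus control) of each measured gene in 6 lists, among them adaptors, partners, ligands and glycosylation genes. A red bar marks the list median, grey shading spans the central 95% of measured genes and dashed lines mark 1.5-fold. Vcam1 (-0.63) lies past the left line, Tns3 (-0.51) and Lamb2 (0.42) lie outside the shading, and the medians run from -0.041 to 0.054.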

How the data were processed

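Gene expression was measured with 1 Affymetrix array per group, from cRNA labelled with a 3′ kit per the labels' protocols. The authors deposited 1 intensity per probe set and array, and the submitters' processing notes name RMA, affy and limma without versions or settings. The intensities ran from 7.07 to 36604 (Wnt3a) and from 7.09 to 37075 (control), a linear scale, and the step that made them linear and the genome build are not given in the sources used here. Of 45101 probe sets, 34945 were annotated to 1 gene and were used after leaving out 64 controls. Values were taken as log2(intensity + 1). For a gene with several probe sets, the brightest over both arrays was used. The 31 members and all lists were chosen with earlier results of these data known. All members were named, and of each other list up to 4 measured genes with the largest differences, with Axin2 and cell type markers at the floor. Context symbols without a probe set of their own were left out. Alternatives covered the floor, the probe set per gene, centring, the pseudocount and the threshold. The procedure was run on simulated arrays with known folds as a check of the arithmetic. Their noise was set in advance and not taken from these data, so the run says nothing of a single gene on 1 array per group. Python 3.11.15, numpy 2.4.6, pandas 2.3.3, statsmodels 0.14.6 and matplotlib 3.10.9 were used.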

Additional observations from a re-analysis of the deposited data

How the results depend on the processing

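Changes of centring and of the pseudocount were the 4 settings that altered the value of Itgb8 or Itga4, giving 0.93 to 1.15 for Itgb8 and 0.51 to 0.72 for Itga4. The other settings leave the chosen probe set and its value as they are, or give none, and say nothing of stability. A floor of 8 leaves both out, and the mean over all probe sets puts Itga4 below the floor. The floor of 8 took the integrin count of higher calls to 0 and the median to -0.066. The spike-in controls, lower on the Wnt3a array for all 42 probe sets, would add 0.19 to every difference. That scaling gave an integrin median of 0.25 with 2 higher calls, a dystrophin complex median of 0.26, 1 higher and 0 lower calls among the other lists, and a positive sign for Itgb1 (0.02), Itga2b (0.08), Itga5 (0.16) and Itga9 (0.17). It moved the median of all measured genes to 0.18, with 1.84% of them called higher and 0.149% lower. At 2-fold 0 integrins and 0 genes of the other lists were called, and at a lower threshold (0.32 on the log2 scale) 2 integrins were higher, with 1 higher and 2 lower among the other lists, where 2.61% of all measured genes were called higher and 2.70% lower. As means over all probe sets Vcam1 fell short of 1.5-fold and 0 genes of those lists were called lower, Utrn turned to -0.09 and Itgb5 to -0.03. Without probe sets that can match several transcripts Itga7 and Itgb4 had no value, Itga5 was at 0.18 and Itgb5 at -0.21. No paired analysis was possible because each group had 1 array. Signal over background could not be judged without detection calls.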
